A study of Rattus norvegicus with 232 samples.

Results

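The LEXF and FXLE strains of the Hybrid Rat Diversity Panel (HRDP) are recombinant inbred rats made from the same pair of inbred progenitors, LE/Stm and F344/Stm, in reciprocal crosses, and their whole-brain RNA is compared here. The members were chosen by strain label alone: strains whose name begins with LEXF against strains whose name begins with FXLE, all carrying the Stm suffix. In the labels they account for 47 of the 232 samples of the series, 28 of them LEXF and 19 FXLE. The table of RefSeq genes holds 43 of these libraries, each from 1 animal, among 214 libraries of 74 strains. They come from 12 LEXF strains (26 animals) and 7 FXLE strains (17 animals). The table of genes reconstructed from the reads holds 27 LEXF and 18 FXLE libraries of the same 19 strains.

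All animals were untreated males that had met neither alcohol nor drugs and had taken no behavioral test. Whole brain was kept in RNA later, and ribosomal RNA was depleted before stranded total RNA libraries were made. The age of these strains at collection was not given in the sources used here. LEXF10A, LEXF10B, LEXF11, LEXF1A, LEXF1C, LEXF2B, LEXF2C, LEXF5, LEXF6B, LEXF7B, LEXF8A and LEXF9 made up one group. FXLE12, FXLE13, FXLE14, FXLE15, FXLE17, FXLE18 and FXLE20 made up the other. Strains that share a number and differ in their letter (LEXF1A and LEXF1C, LEXF2B and LEXF2C, LEXF10A and LEXF10B) are sublines of one line. Animals of one inbred strain share their genotype, so the animals were averaged and the strain mean was the unit of every comparison. FXLE13, LEXF2B and LEXF9 were represented by 1 animal each in the RefSeq gene table.

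In a reciprocal pair of crosses the same nuclear genomes are mixed, but the sexes of the founders are exchanged. By the usual convention the female parent is written first, so that LEXF lines received their mitochondrial genome from an LE female and their Y chromosome from an F344 male, and FXLE lines the reverse. The X chromosome is also passed on unequally, more often from the female founder than from the male one. The autosomes are sorted at random into each line during inbreeding and carry alleles of either founder. The comparison therefore asks whether brain RNA differs according to the direction of the founding cross.

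Sequencing batch was not balanced over the crosses. Batches 15 to 17 held 2 LEXF strains (LEXF10A and LEXF1C) and 3 FXLE strains (FXLE12, FXLE15 and FXLE20), and batches 18 to 20 held 10 LEXF and 4 FXLE strains. Each comparison was therefore repeated within both batch groups, except that of the features that separate the progenitors, whose rule could not be applied within batches 15 to 17. Within batches 15 to 17 an exact permutation test cannot give a p-value below 0.1. No batch 17 library of these strains was in the tables, so the values of this group hold none from that batch. Library medians lay between 8.26 and 8.39 on the log2 scale in the RefSeq table and between 3.29 and 3.83 in the reconstructed table. The depth of the libraries is unknown because no counts were analysed here. As a check of the labels, 39 of the 40 animals from strains with at least 2 animals had their nearest neighbor in their own strain, over 54 RefSeq features that separate the progenitors. The exception was 1 animal of LEXF2C. The progenitor F344/Stm was represented by 3 animals and LE/Stm by 1, and that LE/Stm library carried a mean level of 17.8 over 14 liver genes, against 9.80 in F344/Stm and 8.37 to 8.54 in the recombinant strains. Its values are given as a reference, and they also enter the choice and the sides of the features that separate the progenitors, with all that is computed from these. The progenitor libraries came from batches earlier than those of any LEXF or FXLE library. Midpoints, sides and progenitor levels are therefore set against the strains across batches, also within the batch groups.

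No RefSeq gene differed between LEXF and FXLE strains at a false discovery rate of 5%. Of 20859 features, 0 (0%) were called by limma and 0 by the exact permutation test over all 50388 relabelings of the strains. The smallest limma adjusted p was 0.312. At an unadjusted p under 0.05 limma found 859 features (4.12%), 443 higher in LEXF (2.12%) and 416 lower (1.99%), and the exact permutation test found 872 (4.18%). Within batches 18 to 20 the limma counts were 0 called and 750 (3.6%) at the unadjusted threshold, and within batches 15 to 17 they were 0 and 330 (1.58%). With the batch group as a covariate they were 0 and 635 (3.04%). Leaving out single strains moved the share at the unadjusted threshold from 3.11% (without FXLE20) to 6.26% (without FXLE13, represented by 1 library), with 0 called in each case. The median 95% interval of a difference had a half-width of 0.12 on the log2 scale, and 98.7% of the features had an interval that lay within 0.5 of zero on either side. No RefSeq feature (0%) had strain values that did not overlap between the crosses.

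The same held for the profile taken as a whole. The direction of the cross took 5.30% of the variance of the strain means, against a mean of 5.56% over all relabelings of the strains, and the one-sided exact permutation p was 0.463. When labels were exchanged only within batch groups the exact p was 0.416. Within batches 18 to 20 the share was 7.08% (exact p = 0.617) and within batches 15 to 17 it was 17.9% (exact p = 0.6). Leaving out single strains moved the share between 4.95% (without FXLE20) and 6.63% (without FXLE13).

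**Figure D1:**
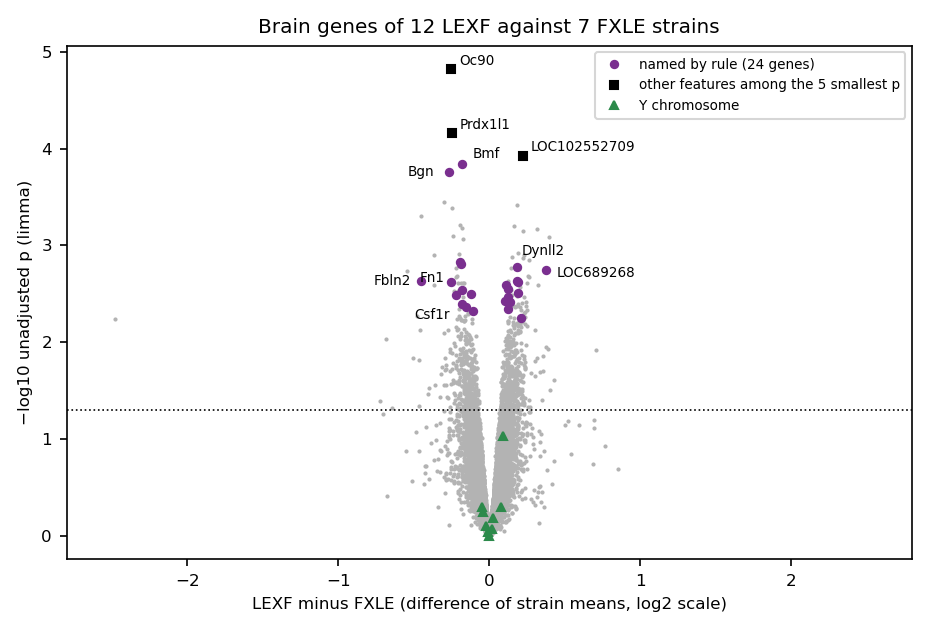
Difference between strain means (horizontal axis, LEXF minus FXLE, log2 scale) against the limma −log10 unadjusted p (vertical axis) for 20859 RefSeq features in 12 LEXF and 7 FXLE strains. Purple points are the 24 genes named by rule, black squares the other features among the 5 smallest p-values, green triangles the Y chromosome features, and the dotted line marks an unadjusted p of 0.05. No point passed 5% after adjustment, and the Y chromosome features sit near zero.

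The genes with the smallest p-values are described next as measured values, since none of them passed the test after adjustment. They are the 12 in each direction with the smallest p among RefSeq genes above the median level of the table (8.32 on the log2 scale). Their differences ranged in size from 0.11 to 0.45 on the log2 scale, and their unadjusted limma p-values from 0.000144 to 0.00559. All 24 had the same sign within batches 15 to 17 and within batches 18 to 20, where 3 and 22 of them had an unadjusted p under 0.05. Since the genes were chosen on this contrast over the same strains, this agreement is a description only.

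Bmf, which encodes a BH3-only protein that promotes apoptosis, had the smallest p of the genes that were lower in LEXF. Its LEXF strains lay between 8.74 and 8.96 on the log2 scale with a median of 8.86, and its FXLE strains between 8.96 and 9.09 with a median of 9.02. The groups met at their edges, the highest LEXF strain being level with the lowest FXLE strain. The difference was −0.18 (SE 0.04), with a limma unadjusted p of 0.000144 and an adjusted p of 0.731.

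Bgn, on the X chromosome, encodes biglycan, a small proteoglycan of the extracellular matrix. Its LEXF strains ranged from 8.58 to 9.02 (median 8.76) and its FXLE strains from 8.94 to 9.13 (median 9.04), a difference of −0.27 (SE 0.06) that was −0.27 within batches 15 to 17 and −0.25 within batches 18 to 20. Most LEXF strains lay below all FXLE strains. Fbln2, encoding fibulin-2 of basement membranes, had LEXF strains between 8.39 and 9.57 (median 8.77) and FXLE strains between 8.81 and 9.63 (median 9.35), the widest difference of the 24 at −0.45 (SE 0.13). Fn1, encoding fibronectin, ranged from 10.50 to 10.90 in LEXF and from 10.57 to 11.18 in FXLE, a difference of −0.25 (SE 0.07). The strain values of Fbln2 overlapped over most of their range. For Fn1, FXLE12, FXLE15, FXLE17 and FXLE18 lay above all LEXF strains, and the lowest FXLE strain was FXLE13 at 10.57.

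Csf1r and Lyz2 are expressed by microglia and other macrophages, Csf1r as the receptor on which microglial survival depends and Lyz2 as a lysozyme. Csf1r lay between 11.46 and 11.79 in LEXF (median 11.57) and between 11.60 and 11.96 in FXLE (median 11.76), a difference of −0.18 (SE 0.06, limma unadjusted p = 0.00402, adjusted p = 0.999). Lyz2 ranged from 9.92 to 10.32 in LEXF and from 10.12 to 10.57 in FXLE, a difference of −0.22 (SE 0.07) that was −0.06 within batches 15 to 17 and −0.26 within batches 18 to 20. In both genes the upper part of the LEXF range lay within the FXLE range.

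Polr2j, a subunit of RNA polymerase II, differed by −0.18 (SE 0.05), and B9d1, a protein of the transition zone of cilia, by −0.11 (SE 0.03). Nipal4, a magnesium transporter of the NIPA-like family, differed by −0.16 (SE 0.05). RGD1359634 (−0.19), Natd1 (−0.18) and Gucd1 (−0.12) completed the 12.

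On the other side, Dynll2, a light chain shared by dynein and myosin V motors, had LEXF strains between 13.12 and 13.45 (median 13.27) and FXLE strains between 12.89 and 13.24 (median 13.13). The difference was +0.18 (SE 0.05, limma unadjusted p = 0.00168, adjusted p = 0.999). Atp5pf, which encodes coupling factor 6 of the mitochondrial ATP synthase, lay between 11.01 and 11.37 in LEXF (median 11.25) and between 10.86 and 11.20 in FXLE (median 11.03), a difference of +0.19 (SE 0.05). For both genes the lower LEXF strains lay inside the FXLE range.

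Tmem241, a transmembrane protein gene, had LEXF strains from 8.41 to 8.56 and FXLE strains from 8.27 to 8.43, and only the edges of the ranges overlapped. The difference was +0.11 (SE 0.03), and its exact permutation p of 7.94e-05 was unadjusted. LOC689268, an unplaced RefSeq feature, had the widest difference in this direction at +0.37 (SE 0.11), and its FXLE strains were spread from 7.83 to 8.80 against 8.62 to 8.96 in LEXF.

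Srsf2, a splicing factor of the serine and arginine-rich family, differed by +0.12 (SE 0.04). Btg1, an antiproliferative gene, differed by +0.19 (SE 0.06), and the arginine methyltransferase gene Prmt6 by +0.12 (SE 0.04). The ubiquitin ligase genes Kcmf1 and G2e3 differed by +0.11 (SE 0.03) and +0.21 (SE 0.07), and Pfdn2, a subunit of the prefoldin chaperone, by +0.14 (SE 0.04). Ccndbp1, whose product binds D-type cyclins, differed by +0.18 (SE 0.05) and LOC679739 by +0.12 (SE 0.04). Of these, Ccndbp1 had 1 FXLE strain far below the rest, FXLE13 at 9.91, where the FXLE median was 10.28.

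**Figure D2:**
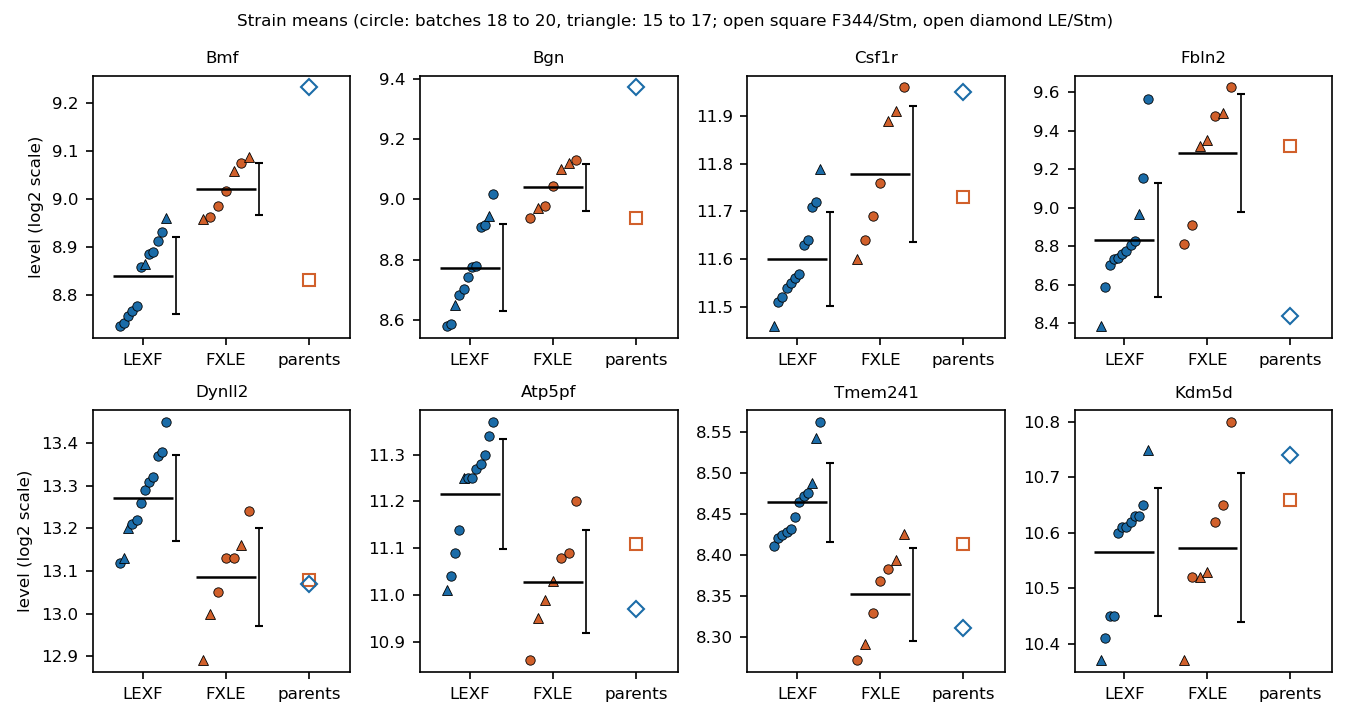
Strain means on the log2 scale for 7 of the named genes and for Kdm5d of the Y chromosome, with 1 point per strain (circles batches 18 to 20, triangles 15 to 17), the group mean as a horizontal line and the SD between strains as a bar. Open symbols are the progenitors F344/Stm (square, mean of 3 animals) and LE/Stm (diamond, 1 animal). The ranges of LEXF and FXLE overlap in every panel, only narrowly for Bmf and Tmem241.

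Other features with smaller p-values lay below the median level of the table and are named after their values were seen. Oc90, the otoconin gene of the inner ear, stood near the floor of the table at 1.89 to 2.18 in LEXF and 2.13 to 2.36 in FXLE. It had the smallest p of all RefSeq features (difference −0.25, SE 0.05, limma unadjusted p = 1.5e-05, adjusted p = 0.312). Prdx1l1, a peroxiredoxin-like gene, differed by −0.25 (SE 0.05) and LOC102552709, a long noncoding RNA, by +0.22 (SE 0.05), both with an adjusted limma p of 0.723 or higher. The largest difference of any size belonged to LOC100363502, an unplaced RefSeq feature, also named after its values were seen. It was under 6 on the log2 scale in 10 of 12 LEXF strains and in 1 of 7 FXLE strains, with medians of 4.92 and 8.51. F344/Stm had a level of 7.98 and the LE/Stm animal 3.95, and most strains lay near one of these values. The exceptions among LEXF were LEXF6B at 9.26 and LEXF9 at 10.26, and among FXLE FXLE14 at 4.53. The difference of −2.48 (SE 0.81) had a limma unadjusted p of 0.00577 and an adjusted p of 0.999.

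The reconstructed gene table also gave no call. Of its 84223 features, 0 (0%) were called by limma and 0 by the exact permutation test, and 4806 (5.71%) and 5360 (6.36%) respectively had an unadjusted p under 0.05. The smallest limma adjusted p was 0.182. Of the 24 named genes, 19 were matched to a single reconstructed feature, and in this measure of the same RNA all 19 had the same sign, 12 with an unadjusted limma p under 0.05. The reconstructed feature of Oc90 lay between 1.00 and 2.21 in LEXF and between 2.18 and 3.07 in FXLE, a difference of −1.09 (SE 0.17, adjusted limma p = 0.182). It was called when each library was centered on its own median (adjusted limma p = 0.0296) and without LEXF10A, and a different feature, PRN7.71G0203573, was called without LEXF2B, each time as the 1 call. F344/Stm had 2.53 and the LE/Stm animal 0.26.

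Strain values of LEXF and FXLE did not overlap for 5 reconstructed features (0.00594% of those tested). PRN7.71G0079714, an unannotated feature at chr4:91162316-91201836, lay between 5.17 and 7.03 in LEXF and between 3.55 and 5.02 in FXLE, a difference of +1.78 (SE 0.29). PRN7.71G0072942, at chr4:21835931-21890498, differed by +0.66 (SE 0.11) and PRN7.71G0118453, at chr6:128619872-128624589, by +0.38 (SE 0.08). Entpd1, encoding the ectonucleotidase CD39 of microglia and vessels, differed by −0.16 (SE 0.07), and Nipal4 by −0.27 (SE 0.08). Both of these were separated by a gap of less than 0.01. The adjusted limma p-values of the 5 features ranged from 0.182 to 0.846. Coordinates are those of the deposited annotation of the table, whose genome build was not given in the sources used here.

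The mitochondrial genome comes from a different founder in each cross. It encodes subunits of respiratory complexes I, III, IV and V, which are transcribed as long precursors from both strands and cut into messenger RNAs. Its genes are represented in the reconstructed table only, where 14 features carry 11 protein-coding gene symbols. Of the 14, 13 were lower in LEXF, where 48.5% of all 84223 features were lower, and 5 had an unadjusted p under 0.05, where 2.35% of all features did so in this direction. None passed 5% after adjustment by limma or by the exact permutation test. The median difference was −0.34, against 0.01 over all features. With each library centered on its own median, the median over all features was −0.06 and 61.5% of them were lower in LEXF. The 14 features share precursors and reads and are not independent of each other.

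Mt-nd5, a subunit of complex I, stood apart most. Its feature PRN7.71G0261236 (chrM:11736-13563) lay between 11.41 and 12.62 in LEXF with a median of 12.20, and between 12.61 and 13.69 in FXLE with a median of 12.72. The highest LEXF strain reached the lowest FXLE strain, and all others were separated. The difference was −0.77 (SE 0.18), with a limma unadjusted p of 0.000378, an adjusted p of 0.577 and an exact permutation p of 0.000238. It was −0.70 within batches 15 to 17 and −0.88 within batches 18 to 20.

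Mt-nd4, also of complex I, differed by −0.64 (SE 0.21) in its feature PRN7.71G0261230 (chrM:9870-11537), whose strains ranged from 12.72 to 13.94 in LEXF and from 13.37 to 15.20 in FXLE. This difference was −0.90 within batches 18 to 20 and +0.02 within batches 15 to 17, so that its sign was not shared. The second Mt-nd4 feature, PRN7.71G0261231 (chrM:10160-11537), differed by −0.22 (SE 0.19). Its difference was −0.07 within batches 18 to 20 and −0.46 within batches 15 to 17. Mt-nd2 of complex I differed by −0.48 (SE 0.19) and Mt-cyb of complex III by −0.39 (SE 0.14). The second Mt-nd5 feature, PRN7.71G0261238, differed by −0.44 (SE 0.20). The cytochrome oxidase genes Mt-co1 and Mt-co2 differed by −0.43 (SE 0.37) and −0.14 (SE 0.13), and neither had an unadjusted p under 0.05. Mt-nd6, the one protein-coding gene on the opposite strand, was the single feature with a positive difference, +0.23 (SE 0.21).

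One strain carried much of this pattern. The mean over the 14 features was 14.95 in FXLE13, where the other FXLE strains lay between 13.91 and 14.21 and the LEXF strains between 13.18 and 14.23. The FXLE13 animals of the reconstructed table had means of 14.79 and 15.11 over the 14 features, and each lay above all other strain means in 12 of them, for example at 13.56 and 13.82 for Mt-nd5. They were far apart for Mt-co1, at 15.15 and 19.52, where the first lay below and the second above all other strains. Without FXLE13, 11 of the 14 features were lower in LEXF (47.0% of all features were), and the median difference was −0.14. At an unadjusted limma p under 0.05, 3 of them were lower, as were 1739 of all 84223 features. The Mt-nd5 difference was then −0.63 with an unadjusted p of 0.000965. Within batches 15 to 17, which do not hold FXLE13, the median over the 14 features was −0.09 and 8 of them were lower in LEXF, and within batches 18 to 20 the median was −0.38 and 13 were lower. Besides the Mt-nd4 feature PRN7.71G0261230, the sign was not shared by the batch groups for Mt-co1 (+0.11 within batches 15 to 17 and −0.58 within batches 18 to 20), Mt-nd3 (+0.17 and −0.15), Mt-nd4l (+0.02 and −0.71) and the Mt-atp8 feature PRN7.71G0261216 (+0.02 and −0.24).

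The progenitors gave values on both sides of this comparison. In the reconstructed table the LE/Stm animal lay below all 3 F344/Stm animals in 13 of the 14 features, for example at 11.48 against 12.71 to 12.93 for Mt-nd5, but this is the library with the high liver gene level. In an earlier Ensembl gene table, which holds 2 other LE/Stm animals, the LE/Stm mean was lower in 8 of 11 mitochondrial genes, and both animals lay below all 3 F344/Stm animals in 2 of them, Mt-nd2 and Mt-nd5. Mt-nd5 in that table was 14.53 and 14.64 in LE/Stm and 14.66, 14.91 and 14.97 in F344/Stm. The LE/Stm minus F344/Stm differences there ran from −0.26 for Mt-nd5 to +0.69 for Mt-nd6. Shares of all features separated in these ways were not computed, so the progenitor counts are a description only. Albumin RNA was also unequal in the animals of the Ensembl table, at 13.6 and 18.9 in LE/Stm and 12.1 to 15.8 in F344/Stm. Its part in these values was not tested. The other 7 features on the mitochondrial genome begin at position 68 and are long or lie over the ribosomal RNA genes. Whether the depletion step covered mitochondrial ribosomal RNA was not given in the sources used here. These 7 features differed by +0.02 to +0.51, with no unadjusted p under 0.05.

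**Figure D3:**
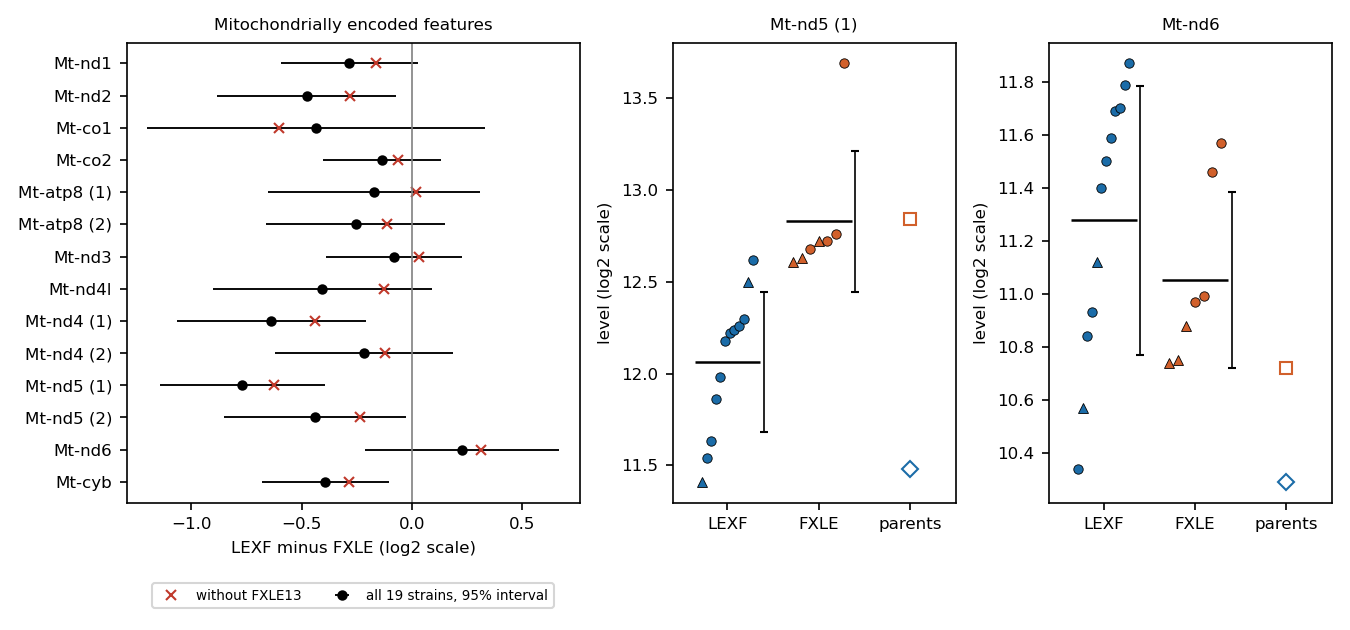
Left, LEXF minus FXLE on the log2 scale for 14 mitochondrially encoded features of the reconstructed table in genome order, with 95% intervals over 19 strains (points) and the value without FXLE13 (crosses). Center and right, strain means of Mt-nd5 (PRN7.71G0261236) and Mt-nd6, with group means as lines, the SD between strains as bars, circles for batches 18 to 20, triangles for 15 to 17 and open symbols for F344/Stm (square) and LE/Stm (diamond). FXLE13 is the point at 13.69 for Mt-nd5, and leaving it out moves most differences toward zero.

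Nuclear genes of the same organelle were listed for comparison. Of 82 nuclear oxidative phosphorylation subunits, 5 were higher and 1 lower in LEXF at an unadjusted p under 0.05 (2.12% and 1.99% of all features), and their median difference was −0.02. The 5 were Atp5pf, Atp5mc3 (+0.13), which encodes a c subunit of ATP synthase, Cox5a (+0.11) of complex IV, Ndufb11 (+0.11) of complex I and Uqcrb (+0.16) of complex III. Ndufs5 of complex I differed by −0.16. Among 75 mitochondrial ribosomal protein genes 1 was higher (Mrpl51, +0.12) and 1 lower (Mrpl23, −0.16), with a median of 0.00. None of the 30 genes of mitochondrial DNA expression and upkeep had an unadjusted p under 0.05, and their median was 0.00. These counts also turned on FXLE13. Without it, 4 oxidative phosphorylation subunits were higher and 9 lower at an unadjusted p under 0.05 (median −0.03), as were 1 and 7 mitochondrial ribosomal protein genes (median −0.01), and 0 and 1 of the upkeep genes (median 0.00). Among all 20859 features 668 were then higher and 638 lower.

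The Y chromosome also comes from a different founder in each cross. Of its 9 RefSeq features none had an unadjusted limma p under 0.05, and their differences ran from −0.05 to +0.09. Kdm5d, a histone demethylase gene, lay between 10.37 and 10.75 in LEXF and between 10.37 and 10.80 in FXLE, a difference of −0.01 (SE 0.06) with a 95% interval of −0.13 to +0.11. Eif2s3y, a translation initiation factor gene, differed by −0.02 (SE 0.09) and Uty, a relative of the histone demethylases, by +0.02 (SE 0.09). Both groups therefore held male-specific RNA at levels whose ranges covered each other. Usp9y, a ubiquitin protease gene, differed by +0.00 over all strains, but by +0.41 within batches 15 to 17 and −0.20 within batches 18 to 20. Ddx3y stood at 2.62 to 3.48 in LEXF and 2.54 to 3.45 in FXLE, and Uba1y, LOC108353317, LOC120099591 and LOC120099595 were also at low levels, so that little could be read from these 5. Of the 6 of these genes on the list of Y-linked genes, 3 were higher and 3 lower, with a median of 0.00, and without FXLE13, 2 were lower, with a median of +0.02. That list matched 5 reconstructed features, 3 of them lower, with a median of −0.11 and no unadjusted p under 0.05.

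The reconstructed table holds 100 features on the Y chromosome, and none was called. At an unadjusted p under 0.05, 3 were higher in LEXF and 1 lower (3.36% and 2.35% of all features), and 39 of the 100 were lower (48.5% of all features). The median difference was +0.08 and the differences ran from −0.57 to +0.86. The unannotated feature PRN7.71G0261386 (chrY:889915-925697), named after its values were seen, had the smallest p. It lay between 6.26 and 7.05 in LEXF (median 6.75) and between 5.30 and 6.73 in FXLE (median 6.29). The ranges overlapped, but the lowest FXLE strains lay below all LEXF strains. The difference was +0.61 (SE 0.18, limma unadjusted p = 0.00314, adjusted p = 0.751), and it was +0.60 within batches 15 to 17 and +0.65 within batches 18 to 20. F344/Stm had 6.18 and the LE/Stm animal 6.98. Without FXLE13 the Y chromosome median was +0.09, with 1 feature higher and 0 lower at an unadjusted p under 0.05 (3326 and 1739 among all 84223 features).

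The X chromosome gave no called feature. Of 599 RefSeq features, 12 had an unadjusted p under 0.05 higher in LEXF and 8 lower (2.12% and 1.99% of all features), and 39.6% were lower in LEXF, where 50.6% of all features were lower. Without FXLE13, 26 were higher and 14 lower at this threshold (668 and 638 among all features), and the median was +0.02. The median difference was +0.01 over all strains, +0.05 within batches 15 to 17 and −0.01 within batches 18 to 20. The RefSeq median thus had opposite signs in the batch groups. Of 4472 reconstructed X features, 205 were higher in LEXF and 76 lower at an unadjusted p under 0.05 (3.36% and 2.35% of all features), or 247 and 60 without FXLE13 (3326 and 1739 among all 84223 features). The median there was +0.05, where that of all features was +0.01, and it was +0.07 within batches 15 to 17 and +0.02 within batches 18 to 20. When each library was centered on its own median, the X median was −0.02 and that of all features −0.06, so that the X median stayed above that of all features. The 13 X-linked partners of Y genes had a median of +0.02 and no unadjusted p under 0.05.

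Marker genes of cell types and of neighboring tissues were examined as lists, of which no member passed 5% after adjustment. All 12 microglial genes were lower in LEXF (50.6% of all RefSeq features were lower), with a median difference of −0.14. Of these, 2 had an unadjusted p under 0.05 (1.99% of all features did in this direction), Csf1r and the purinergic receptor gene P2ry12 (−0.18, SE 0.06). Cx3cr1, the fractalkine receptor gene, differed by −0.15 (SE 0.07) and the complement gene C1qa by −0.21 (SE 0.12). The median was −0.12 within batches 15 to 17 and −0.08 within batches 18 to 20. FXLE13 had the lowest mean over the list of any strain, 9.41, against 9.48 to 9.78 in LEXF and up to 9.91 in FXLE. Without FXLE13 the median was −0.18, and 10 of the 12 had an unadjusted p under 0.05, where 638 of all 20859 features did so in this direction. FXLE13 was left out after its values were seen. Removing the lowest FXLE strain lowers the difference by construction, so these values are a description only. In whole brain, fewer cells of a type and less RNA per cell cannot be told apart.

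Genes of red blood cells showed the same sign. Of 9, 8 were lower in LEXF (50.6% of all features were) with a median of −0.21, and 4 of these had an unadjusted p under 0.05 (1.99% of all features did in this direction). These were Hba-a2 (−0.28, SE 0.13) and Hbb-bs (−0.25, SE 0.10) of hemoglobin, Alas2 (−0.22, SE 0.10), the first enzyme of erythroid heme synthesis, and Slc4a1 (−0.29, SE 0.11), the anion exchanger of red cells. Globin genes are near-identical copies, and reads may have been divided among them. Without FXLE13 the median was −0.25, with 8 of 9 lower (50.5% of all features were) and 4 at an unadjusted p under 0.05 (638 of all 20859 features). The mean over the list ranged from 9.05 to 9.89 in LEXF and from 9.42 to 9.98 in FXLE. Its part in the other differences was not tested.

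Choroid plexus genes were lower in LEXF in 11 of 12 (50.6% of all features were), with a median of −0.10, and F5 (−0.29, SE 0.11), a coagulation factor gene, was the 1 with an unadjusted p under 0.05 (1.99% of all features were lower at this threshold). The transport protein gene Ttr differed by −0.17 (SE 0.11). Without FXLE13, 9 of the 12 choroid plexus genes were lower (50.5% of all features were) with a median of −0.08. Of 10 meningeal genes 7 were lower with a median of −0.06, and Bgn was the single one under 0.05. Without FXLE13, 9 of the 10 were lower (50.5% of all features were) with a median of −0.11. Cerebellar genes had the opposite sign, 0 of 11 being lower, with a median of +0.12 and none under 0.05. FXLE13 was again at the end of the range, with a mean over the cerebellar list of 9.82 against 10.11 to 10.94 in LEXF, and without it the median was +0.03.

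Among the other lists, medians were 0.00 for 14 neuronal genes, −0.04 for 10 astrocyte genes, −0.04 for 12 oligodendrocyte genes, +0.02 for 10 genes of brain endothelium and 0.00 for 10 olfactory bulb genes. Of these lists, 1 astrocyte gene, Sox9 (−0.19, SE 0.07), and 1 oligodendrocyte gene, Cnp (−0.11, SE 0.04), had an unadjusted p under 0.05 (1.99% of all features were lower at this threshold). All 14 liver genes were lower by small amounts (50.6% of all features were lower), with a median of −0.02 and none under 0.05. The medians were −0.06 for 15 interferon response genes and −0.07 for 12 immediate early genes, with none under 0.05 in either. Without FXLE13, when 50.5% of all features were lower, the median was −0.07 for astrocyte genes (9 of 10 lower), −0.01 for oligodendrocyte genes, −0.03 for endothelial genes, −0.01 for liver genes (11 of 14 lower) and −0.13 for interferon response genes. It was then +0.02 for neuronal genes and +0.01 for olfactory bulb genes, of which 2 and 1 were higher at an unadjusted p under 0.05 (668 of all 20859 features were).

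Several medians differed between the tables. In the reconstructed table, where 48.5% of all features were lower in LEXF, the median was −0.24 for microglial genes (10 of 10 lower) and −0.35 for red blood cell genes (4 of 5 lower), but 0.00 for cerebellar genes (6 of 12 lower). Nuclear oxidative phosphorylation subunits had a median of −0.09 there (50 of 63 lower) and mitochondrial ribosomal protein genes −0.08 (45 of 56 lower). RT1 genes had a median of −0.39 (11 of 13 lower). The RefSeq list held 34 RT1 features, so that the members of the lists differ. Class II RT1 features were lower in both tables, 7 of 7 in RefSeq and 6 of 6 here. Interferon response genes had a median of −0.27 (12 of 14 lower), and 4 of them were lower at an unadjusted p under 0.05, where 2.35% of all features were. The median was −0.10 for astrocyte genes (9 of 10 lower), −0.11 for oligodendrocyte genes (8 of 9 lower), −0.13 for choroid plexus genes (11 of 12 lower), −0.08 for meningeal genes (7 of 9 lower) and −0.01 for immediate early genes (6 of 11 lower). X-linked partners of Y genes had a median of −0.02 (9 of 12 lower), genes of mitochondrial DNA upkeep −0.03 (18 of 26 lower), endothelial genes −0.04 (5 of 8 lower) and liver genes +0.02 (4 of 11 lower). The signs of the medians of these 4 lists and of the RT1 genes were thus not shared by both tables, and the cerebellar and mitochondrial ribosomal medians lay at zero in one of them. Without FXLE13 the reconstructed median was −0.04 for cerebellar genes, −0.03 for X-linked partners, −0.05 for upkeep genes and −0.08 for endothelial genes. With each library centered on its own median, 61.5% of all reconstructed features were lower in LEXF, so the 48.5% depends on the centering. These lists were not redone with that centering, and how far their counts depend on it was not tested.

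**Figure D4:**
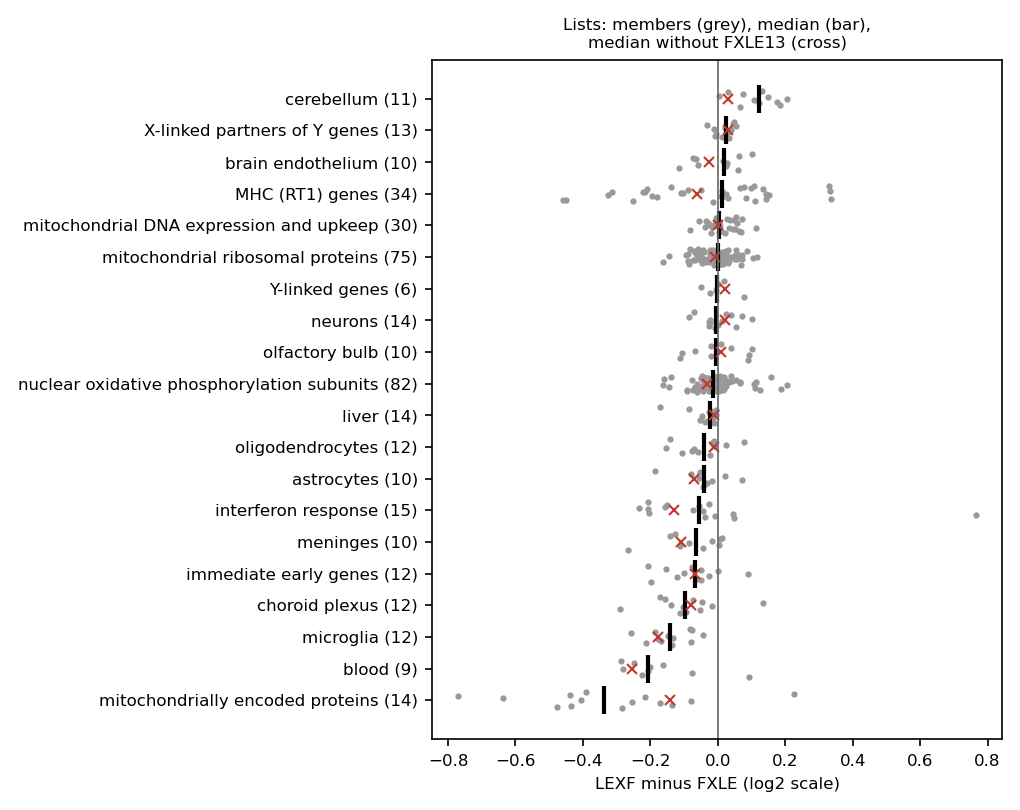
LEXF minus FXLE on the log2 scale for the members (grey points) of each gene list, with the number of features in parentheses, the median (black bar) and the median without FXLE13 (red cross). Mitochondrially encoded proteins are from the reconstructed table, all other lists from the RefSeq table. Medians run from −0.34 to +0.12, and the lowest and the highest move toward zero without FXLE13. The next lowest move away from zero, from −0.21 to −0.25 for red blood cell genes and from −0.14 to −0.18 for microglial genes.

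The rat major histocompatibility complex, RT1, lies on chromosome 20 and encodes the molecules that present peptides to T cells. Of its 34 RefSeq features 4 were lower and 0 higher in LEXF at an unadjusted p under 0.05 (1.99% and 2.12% of all features), and the median difference was +0.01. Without FXLE13, 22 of the 34 were lower (50.5% of all features were), 6 of them at an unadjusted p under 0.05 (638 of all 20859 features), and the median was −0.06. The 4 found over all strains belong to class II, which is expressed by antigen-presenting cells. The class II genes were set apart after their values were seen. RT1-Ba, the alpha chain of a class II molecule, lay between 5.87 and 6.92 in LEXF (median 6.42) and between 6.47 and 7.18 in FXLE (median 6.91), a difference of −0.45 (SE 0.11, limma unadjusted p = 0.000494, adjusted p = 0.999). RT1-Bb, its beta chain, differed by −0.46 (SE 0.16), RT1-Db1 by −0.31 (SE 0.12) and RT1-DOb by −0.22 (SE 0.09). All 7 class II RT1 features were lower in LEXF (50.6% of all features were), with a median of −0.22. Within batches 18 to 20, however, RT1-DMa differed by +0.03. Cd74, the invariant chain that accompanies class II molecules and is encoded on chromosome 18, differed by −0.36 (SE 0.15), and Ciita, the transactivator of class II genes, by −0.01 (SE 0.08). RT1 genes are close copies of each other and differ between haplotypes, so that reads may be assigned unequally in strains of different haplotype.

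The autosomal makeup of the strains was examined with features that separate the progenitors. Between F344/Stm and LE/Stm, 165 of 20859 RefSeq features (0.791%) were called by limma at 5%. LE/Stm had 1 animal, so that the spread in this fit was taken from the replicate animals of the other strains (200 animals of 74 strains) and the single LE/Stm animal was assumed to vary like them. The calls serve only to pick features, since they compare 1 library with F344/Stm: 12 of the 14 liver genes were among the 165. Those that differed by at least 1 on the log2 scale and had at least 3 of the 19 strains on each side of the midpoint numbered 54. Of these, 42 were autosomal, 12 unplaced and 0 on the X chromosome. The choice of these features did not use the direction of the cross. No liver list gene was among the 54, but needing 3 strains on each side excludes any gene far higher in the LE/Stm library than in all strains. The part of liver RNA in the kept features was not tested. The share of the 42 on the LE/Stm side ranged from 16.7% (LEXF6B) to 66.7% (LEXF9) among LEXF strains, with a mean of 47.8% ± 14.0 (SD, 12 strains). Among FXLE strains it ranged from 9.52% (FXLE13) to 52.4% (FXLE14), with a mean of 36.4% ± 13.8 (SD, 7 strains). The difference of 11.4 percentage points did not exceed the spread between strains (exact permutation p = 0.106, two-sided). It was 14.8 points within batches 18 to 20 (exact permutation p = 0.135) and 9.64 points with sublines averaged (exact permutation p = 0.233). It was 14.3 points without LEXF6B (exact permutation p = 0.0216) and 6.94 points without FXLE13 (exact permutation p = 0.286). It was 0 points over the 4 features whose progenitors differed by at least 2, and 3.95 points over 120 features when no minimum of strains per side was set (exact permutation p = 0.118). The rule needs 3 strains on each side and so kept no feature within the 5 strains of batches 15 to 17. Over the same 42 features those strains had 61.9% (LEXF10A), 42.9% (LEXF1C), 40.5% (FXLE12), 38.1% (FXLE15) and 47.6% (FXLE20).

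In the reconstructed table the same rule kept 103 autosomal features of the 229 called between the progenitors (0.272% of 84223), again with 1 LE/Stm animal, the library with the high liver gene level, and all values that follow rest on it. Here the share on the LE/Stm side was 46.5% ± 7.1 (SD) in LEXF and 38.4% ± 4.7 (SD) in FXLE. The difference of 8.10 points had an exact permutation p of 0.018, or 0.036 after adjustment over the tests of autosomes and of X. It was 8.84 points within batches 18 to 20 (exact p = 0.053) and 6.67 points with sublines averaged (exact p = 0.0755), so that the call was not kept in either. Over the same 103 features the strains of batches 15 to 17 had 55.3% (LEXF10A), 49.5% (LEXF1C), 39.8% (FXLE12), 36.9% (FXLE15) and 45.6% (FXLE20). Leaving out single strains gave 6.85 points (without FXLE13) to 9.83 points (without LEXF6B), with adjusted exact p-values from 0.00163 to 0.0933. The adjusted p was above 0.05 without FXLE13, FXLE15, FXLE18, LEXF10A, LEXF10B, LEXF11, LEXF1C, LEXF5 or LEXF7B. For the 4 X features the mean shares were 50% and 53.6% (exact p = 0.846).

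**Figure D5:**
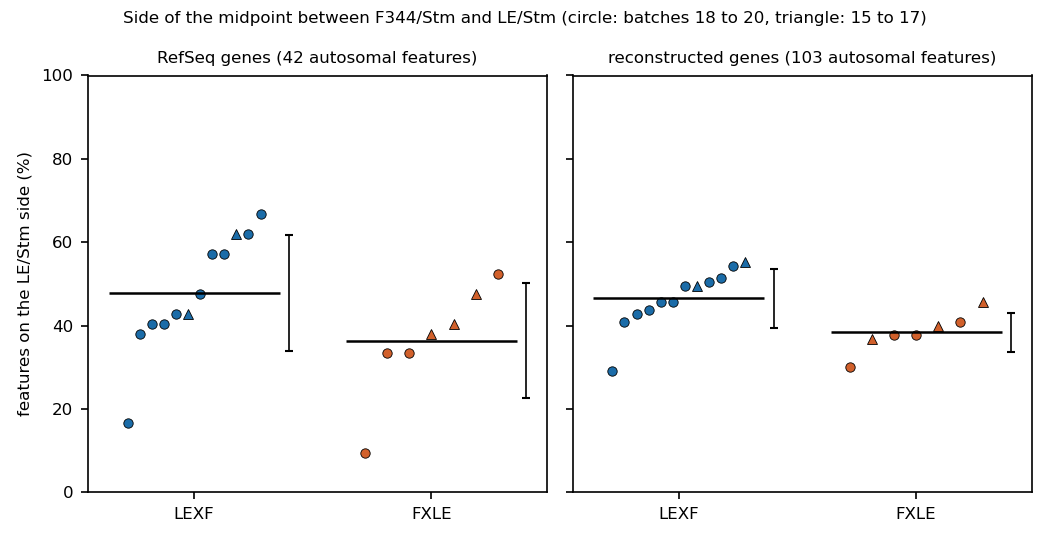
Share of progenitor-split autosomal features on the LE/Stm side of the midpoint (vertical axis, percent) in each strain, for RefSeq genes (left) and reconstructed genes (right), with group means as lines, the SD between strains as bars, circles for batches 18 to 20 and triangles for 15 to 17. LEXF means are 47.8% and 46.5%, FXLE means 36.4% and 38.4%, and the strain values of the crosses overlap in both panels.

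Individual features showed how the lines sorted. Of the 42 autosomal RefSeq features, 30 had a larger share of LEXF than of FXLE strains on the LE/Stm side and 12 a smaller one. Linked features travel together and are not independent, and 10 of the 42 lie on chromosome 20. Of these, 7 are RT1 genes, and each had a larger LE/Stm share among LEXF. RT1-M1-2 was on the LE/Stm side in 6 of 12 LEXF strains and 0 of 7 FXLE strains, with levels of 3.17 to 4.57 and 3.43 to 4.12. Its counts turn on small differences: LEXF10B at 4.158 lay just above the midpoint and FXLE14 at 4.122 just below. That midpoint rests on 3.59 in F344/Stm and 4.67 in the single LE/Stm animal. Tuba1c, an alpha-tubulin gene on chromosome 7, was on that side in 9 of 12 LEXF strains and 2 of 7 FXLE strains, and its level was 10.11 in the LE/Stm animal against 8.27 in F344/Stm. The Tuba1c counts also turn on small differences, with LEXF9 at 9.229, LEXF11 at 9.232 and LEXF2C at 9.248 just above the midpoint. Only LEXF1C, at 10.95, reached the level of the LE/Stm animal. In the other direction Serpinb1b, a protease inhibitor gene on chromosome 17, was on the LE/Stm side in 3 of 12 LEXF and 5 of 7 FXLE strains. These features were singled out after their values were seen.

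Pairs of strains were compared by the share of the 42 features on which they took the same side. The 3 subline pairs shared 64.3% (LEXF2B and LEXF2C), 71.4% (LEXF10A and LEXF10B) and 85.7% (LEXF1A and LEXF1C). Other pairs of LEXF strains shared 23.8% to 71.4% with a median of 47.6%, pairs of FXLE strains 33.3% to 69.0% with a median of 52.4%, and pairs of 1 LEXF and 1 FXLE strain 31.0% to 76.2% with a median of 52.4%. Strains of the same cross were thus no closer by median than strains of opposite crosses on these features, a difference that was not tested.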

How the data were processed

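Whole-brain total RNA of 19 strains was analysed from deposited log2 expression tables of the HRDP brain data, version 7.1. Per the labels' processing notes, the authors trimmed reads with cutadapt 1.9.1, aligned with Bowtie2 (2.3.4.3 or 2.4.5) and HISAT2 (2.1.0 or 2.2.1), reconstructed transcripts with StringTie (1.3.5 or 2.2.1), estimated expression with RSEM (1.3.1 or 1.3.3) and used DESeq2. The notes assign no tool to a table, and the build, annotation and normalization of version 7.1 were not given in the sources used here. The deposited log2 values were used as given. They carry no counts, so depth is unknown and no counting interval was given. Of 20932 RefSeq and 84312 reconstructed features, 73 spike-in features in each table were left out, as were 16 reconstructed features with a value over 30 in a library.

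Animals were averaged to strains, which were weighted equally. Differences were fitted with limma 3.58.1 (R 4.3.3; lmFit, eBayes) over all features, with Benjamini-Hochberg adjustment at 5%, and each feature was also tested by exact permutation over strains, two-sided. The p-values measure the spread between strains. Named genes were the features of the Y chromosome and mitochondrial genome, the 12 above the table median with the smallest p in each direction, features without overlap (up to 5 per direction), and members of the lists that passed 5%, of which there were none. Members, rules and lists were chosen with earlier results of these data known. Alternatives comprised the batch group, weights, sublines, library centering, a level filter, eBayes with trend, animals as units with the strain as a block (correlation 0.136), and leaving out each strain. The gene lists were also summarized without FXLE13, which was chosen after its values were seen. No other strain was left out for the lists. The fit was tested on simulated data. Python 3.11.15 with scipy 1.17.1 was used for the exact tests.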

Additional observations from a re-analysis of the deposited data

Results flagged for a closer look

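Among the 7 FXLE strains, 89 groups of values were examined for a strain far from the others (Dixon's criterion, which chance passes in about 1 of 20 groups), and 9 had one. Of these, 8 were FXLE13. It was the highest for Mt-atp8 (PRN7.71G0261216) at 13.04, Mt-nd4l at 10.98, Mt-nd4 (PRN7.71G0261230) at 15.2, Mt-nd5 (PRN7.71G0261236) at 13.69 and the mean of the mitochondrially encoded proteins at 14.95. It was the lowest for Ccndbp1 at 9.907, the mean of the microglial list at 9.413 and that of the cerebellar list at 9.824. The ninth was the reconstructed feature of Nipal4, highest in FXLE15 at 9.272. FXLE13 entered the RefSeq table with 1 animal and the reconstructed table with 2. All values are on the log2 scale.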

How the results depend on the processing

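No RefSeq gene was called under any alternative run, and the 24 named genes kept their direction and stayed uncalled in all 739 combinations of a gene and an alternative. The reconstructed count of 0 became 1 with libraries centered on their median (the Oc90 feature, adjusted limma p = 0.0296), and ranged from 0 to 1 over the strains left out (1 without LEXF10A, Oc90, and 1 without LEXF2B, PRN7.71G0203573). The RefSeq difference in LE/Stm side was 0 points for the 4 features split by at least 2 and 8.10 for the reconstructed table. It ranged from 6.94 (without FXLE13) to 14.3 points (without LEXF6B, exact permutation p = 0.0216) over the strains left out. For the reconstructed table it was 8.84 within batches 18 to 20, 6.67 with sublines averaged and 6.85 to 9.83 over the strains left out. Within batches 15 to 17, medians moved to 0.0882 for the Y chromosome, 0.0801 for X-linked partners, 0.0633 for mitochondrial DNA upkeep, 0.0233 for liver and −0.161 for RT1 genes, and the differences turned to 0.0192 for Mt-nd4 (PRN7.71G0261230), 0.110 for Mt-co1, 0.0161 for Mt-atp8 (PRN7.71G0261216), 0.170 for Mt-nd3 and 0.0197 for Mt-nd4l. The causes were not tested. The batch group by cross interaction gave 0 calls by limma, with 1.6% of RefSeq and 2.92% of reconstructed features at an unadjusted p under 0.05. The fit without libraries of batch 17 was not run, because no such library of these strains was in the tables. No paired analysis was possible because the unit compared is the strain mean and replicate numbers of different strains mark different animals. The limits are the 2 against 3 strains of batches 15 to 17, the 3 strains with 1 animal and the unknown depth.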
